A study of Arabidopsis thaliana with 16 samples.

Results

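The WRKY transcription factors examined here are 10 members of the family that are known from stress, defense and senescence responses: WRKY6, WRKY18, WRKY25, WRKY33, WRKY40, WRKY46, WRKY53, WRKY54, WRKY70 and WRKY75. They were chosen by locus, as the probe sets whose array annotation gives one of these 10 loci. Each locus had 1 probe set, so that 10 of the 22687 probe sets tested and 10 of the 59 WRKY genes on the array are described.

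The arrays hold RNA of undifferentiated Arabidopsis thaliana Col-0 callus cells, 14 days old, that grew in the dark on solid medium in the canisters of the BRIC17 experiment and were fixed in RNAlater after 10 days in orbit or on the ground. The 4 groups were HSFA2 KO cells in spaceflight (FHsf), HSFA2 KO cells on the ground (GHsf), WT cells in spaceflight (FWt) and WT cells on the ground (GWt), and the ground plates were started 48 h after the flight plates. HSFA2 KO cells carry a T-DNA insertion in the heat shock factor gene HsfA2, and each genotype was 1 culture line derived from hypocotyls, so plates of a line are repeats of that line and not of the genotype. There were 16 Affymetrix ATH1 arrays, 3 each in FHsf and GHsf and 5 each in FWt and GWt. WT plate A1 was arrayed 2 times in each environment and the mean of its log2 signals was taken, so that 14 units were compared, 3 in each HSFA2 KO group and 4 in each WT group. The HSFA2 KO plates were in BRIC B only, and the WT plates in both BRIC A and BRIC B. The labels disagree on whether the GHsf arrays B3 and B3-2 are of 1 plate; both were kept as units. Nothing in the labels says that plates were separate cultures, and p-values measure the spread between these units only.

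WRKY proteins are plant transcription factors that bind a short promoter element, the W-box, found in many defense genes and in most WRKY genes themselves. Several of them are induced within minutes to hours by microbial elicitors, wounding and salicylic acid, and they act in networks of activators and repressors. MAP kinases and the small VQ proteins change the activity of WRKY33 after it is made, so a transcript level is not a measure of its activity.

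The label check came first. HsfA2 had MAS5 signals of 34.5 to 170 in FHsf and 7.38 to 76.5 in GHsf units, against 5362 to 9180 in FWt and 3187 to 6291 in GWt units, a log2 fold change of -6.83 in spaceflight and -6.94 on the ground (adjusted p = 0.0415 and 0.0353). Array medians ran from 68.7 to 123. The callus gene WIND1 had a signal of 854 or more and LBD16 of 151 or more in every unit, while LBD29 and PLT2 were low in most. WIND1 fell by 1.86 and LBD16 rose by 1.48 on the log2 scale in GHsf : GWt. Of the 3 photosynthesis markers measured, out of 5 listed, RBCS1A was called upward in GHsf : GWt and PSBO1 downward in FHsf : GHsf. Their signals ran from 8.89 to 147 and from 2.81 to 108 over all units, partly under the lower quartile of the arrays, so that no fold is given. The summed signal of the 3 was 131 to 453 in FHsf, 250 to 422 in GHsf, 236 to 334 in FWt and 226 to 318 in GWt units. No xylem (5 measured) or root hair marker (2 measured) was called in any comparison. Whether these cell markers have a part in the WRKY values was not tested, and in such bulk samples fewer cells of a type and less RNA per cell cannot be told apart.

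A gene was called when its unadjusted p in limma was under 0.01 and its log2 fold change was over 1 in size, limits taken from the study's methods. Members were called between the genotypes and not between the environments. In FHsf : FWt, WRKY33 and WRKY70 rose, so that 2 of the 10 members were called, against 1.75% of all probe sets. In GHsf : GWt, WRKY70 rose and 1 of 10 was called, against 2.46% of all probe sets. Over both environments, HSFA2 KO : WT called WRKY33 and WRKY70 again, against 2.58% of all probe sets. In spaceflight against ground, no member was called in FHsf : GHsf, where 1.51% of all probe sets were, or in FWt : GWt, where 0.807% were. An unadjusted limma p under 0.05 was reached by WRKY25 alone of the 10 in FHsf : GHsf, against 1562 of 22687 probe sets. In FWt : GWt it was reached by WRKY46 alone, against 997 of 22687. The interaction, which tests whether the spaceflight effect differed between the genotypes, called 0 of 10 members against 1.02% of all probe sets. There WRKY25 alone had an unadjusted limma p under 0.05, against 1075 of 22687 probe sets.

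Counts of members above 0 are a description only. The members were read on the same units and some of them correlate, so they are not repeats of a comparison. They were also chosen with earlier results of these data known. In FHsf : FWt, all 10 members had a log2 fold change above 0, with a median of 0.87, where 54.5% of all probe sets were above 0 and their median was 0.07. In GHsf : GWt, 6 of 10 were above 0 with a median of 0.21, against 56.7% and a median of 0.12 for all probe sets. In FHsf : GHsf, 8 of 10 were above 0 with a median of 0.26, against 45.9% and a median of -0.07 for all probe sets. FWt : GWt had 5 of 10 with a median of -0.04, against 46.9% and a median of -0.03. The 10 of 10 in FHsf : FWt was also found with WT plates of BRIC B alone, with a median of 0.64. This setting keeps the same FHsf units and part of the FWt units, so it is not a separate test. In it, GHsf : GWt had 4 of 10 above 0 and a median of -0.15, and FWt : GWt had 0 of 10 and a median of -0.46.

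**Figure D1:**
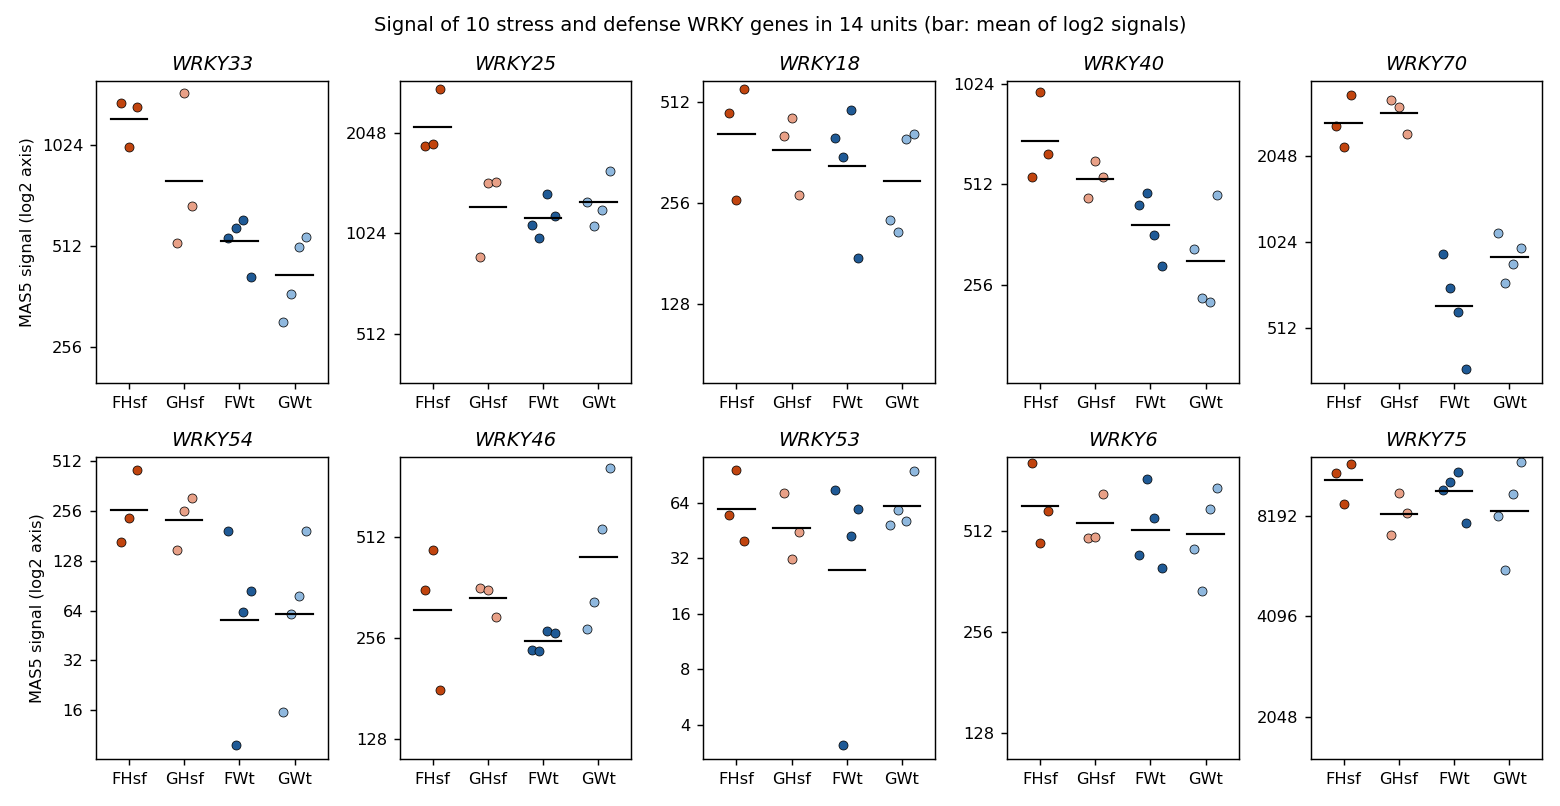
MAS5 signal of each of the 10 WRKY genes (log2 axis, 1 panel per gene) in the units of FHsf, GHsf, FWt and GWt; each point is a unit and the bar is the mean of the log2 signals of 3 (HSFA2 KO) or 4 (WT) units. In the WRKY70 panel every HSFA2 KO unit, at 2212 or more, lies above every WT unit, at 1101 or less, whereas the WRKY75 units of all groups lie between 5643 and 11842.

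WRKY33 (At2g38470, chromosome 2, 16108496 to 16110539, plus strand in the deposited annotation, whose genome build is not given in the sources used here) encodes an activator that is needed for resistance to necrotrophic fungi and for synthesis of the phytoalexin camalexin. Its signal was 1370, 1012 and 1331 in FHsf units, against 542, 578, 612 and 413 in FWt units. On the ground it was 521, 1471 and 675 in GHsf units, against 303, 367, 508 and 544 in GWt units. Every FHsf unit was thus above every FWt unit, whereas the lowest GHsf unit lay within the range of GWt. The log2 fold change was 1.21 ± 0.36 (SE) in FHsf : FWt, which passed (adjusted p = 0.398), and 0.94 ± 0.36 in GHsf : GWt, which did not (adjusted p = 0.377). Over both environments HSFA2 KO : WT was 1.07 ± 0.25 (adjusted p = 0.0894). The study had picked WRKY33 on these arrays as a gene that differed between the genotypes, so its calls are not independent evidence of its direction.

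The ground value of WRKY33 rested on 1 array. GHsf array B3-2 read 1471 and B3, which may be the same plate, read 521, a difference of 1.50 on the log2 scale. Without B3-2 the GHsf : GWt value was 0.50, and without B3 it was 1.25 and was called. On the ground, the WT plates of BRIC B (508 and 544) also lay above those of BRIC A (303 and 367), and with BRIC B alone GHsf : GWt was 0.61 and FHsf : FWt was 1.29, neither of them called. The FHsf : FWt call was also lost without FWt plate A1, A2 or B2 or FHsf array B3-2 or B5, with values of 1.09 to 1.35 over all units left out. Spaceflight against ground gave 0.61 ± 0.39 in FHsf : GHsf and 0.34 ± 0.33 in FWt : GWt, both inside the spread of the units (adjusted p = 0.805 and 1.00).

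WRKY25 (At2g30250, chromosome 2, 12903552 to 12905089, minus strand) is the nearest relative of WRKY33 among the members and has been linked to heat tolerance. Its signal was 1864, 1891 and 2756 in FHsf units, against 871, 1445 and 1461 in GHsf units. It was the single member with every FHsf unit above every GHsf unit, 1 of 10 against 5.26% of all probe sets. In FWt units it was 1083, 994, 1340 and 1151, against 1270, 1077, 1202 and 1570 in GWt units, which overlap. The 3 FHsf units were the highest of all 14. The log2 fold change was 0.80 ± 0.29 in FHsf : GHsf (adjusted p = 0.653) and 0.91 ± 0.27 in FHsf : FWt (adjusted p = 0.387), while FWt : GWt was -0.16 ± 0.25 and GHsf : GWt was -0.05 ± 0.27. None of these passed: FHsf : FWt met the limit on p but not the required log2 fold change over 1, and the other 3 met neither limit. Without FHsf array B3-2, FHsf : FWt of WRKY25 was 1.01 and was called. WRKY25 had the smallest interaction p of the 10 members, with an interaction of 0.96 ± 0.38 (adjusted p = 0.999), and no call was made there. Without the second-run arrays, which leaves 2 FHsf arrays and GHsf array B3 alone, FHsf : GHsf of WRKY25 was 1.39 and was called, and without GHsf array B3 it was 0.55. Every FHsf unit of WRKY33, WRKY25, WRKY40 and WRKY70 was above every FWt unit, that is 4 of 10 members, where 5.73% of all probe sets show this order. On the ground every GHsf unit was above every GWt unit for WRKY70 only, 1 of 10 members against 7.95% of all probe sets.

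WRKY40 (At1g80840, chromosome 1, 30383833 to 30385356, plus strand) and WRKY18 (At4g31800, chromosome 4, 15383295 to 15384812, plus strand) encode closely related proteins that pair with each other and act mainly as repressors of defense and abscisic acid response genes. WRKY40 had signals of 539, 970 and 632 in FHsf units, against 443, 482, 361 and 291 in FWt units. On the ground it had 467, 602 and 538 in GHsf units, against 327, 234, 227 and 477 in GWt units. HSFA2 KO units were mostly the higher ones, with an overlap on the ground that came from GWt plate B2 at 477. Its log2 fold changes were alike in both environments, 0.84 ± 0.33 in FHsf : FWt and 0.82 ± 0.33 in GHsf : GWt, and 0.83 ± 0.23 over both (adjusted p = 0.137), below the required size of 1. Without GWt plate B2, GHsf : GWt was 1.04 and was called. The partner gene WRKY18 did not show this: its signals ran from 261 to 559 in FHsf, 270 to 460 in GHsf, 175 to 487 in FWt and 210 to 411 in GWt units. Its HSFA2 KO : WT difference over both environments was 0.31 ± 0.30, with a 95% interval of -0.35 to 0.97 that includes the value of WRKY40. The difference between these 2 genes was not tested.

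WRKY70 (At3g56400, chromosome 3, 20909081 to 20910409, minus strand) encodes a factor that stands between salicylate and jasmonate signalling and, together with WRKY54, holds back salicylate accumulation and leaf senescence. It was the member with the smallest p in both genotype comparisons. Its signal was 2618, 2212 and 3368 in FHsf units, against 928, 705, 581 and 366 in FWt units. On the ground it was 3235, 3056 and 2453 in GHsf units, against 1101, 737, 858 and 979 in GWt units. The lowest HSFA2 KO unit was above the highest WT unit in either environment. The log2 fold change was 2.14 ± 0.32 in FHsf : FWt (4.41-fold, adjusted p = 0.0694) and 1.67 ± 0.32 in GHsf : GWt (3.19-fold, adjusted p = 0.119). Over both environments it was 1.91 ± 0.23 with an adjusted p of 0.0116, 1 of 131 probe sets under an adjusted p of 0.05 and the only one of the 10 members. Both counts depend on single units: 1 to 56 probe sets were under 0.05 when a unit was left out, and without FHsf array B3-2 the count was 1 and WRKY70 had an adjusted p of 0.053. The exact two-sided permutation test gave p = 0.0286 in each environment, the smallest that 3 against 4 units allow, and 0.19 after Benjamini-Hochberg adjustment over the 40 such tests of members.

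Spaceflight against ground gave -0.10 ± 0.34 in FHsf : GHsf and -0.57 ± 0.29 in FWt : GWt for WRKY70, neither past the spread of the units. The interaction was 0.47 ± 0.45 (adjusted p = 0.999), so that no difference between the 2 genotype effects was detectable. Within BRIC B, where both genotypes had plates, WRKY70 had 2.55 in FHsf : FWt and 1.66 in GHsf : GWt, and both were called. The GHsf arrays B3 and B3-2 read 3235 and 3056, 0.08 apart on the log2 scale. Leaving out each unit in turn kept both calls, with values of 1.89 to 2.34 in FHsf : FWt and 1.57 to 1.79 in GHsf : GWt. The ground call was lost where GHsf array B5-2 or B3 stood alone, without B3 and B3-2 (1.43) or without the second-run arrays (1.88).

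WRKY54 (At2g40750, chromosome 2, 17000635 to 17002354, minus strand), which shares functions with WRKY70, had fold changes of similar size but a far wider spread. Its signal was 166, 234 and 452 in FHsf units, against 195, 9.83, 62.7 and 84.6 in FWt units. On the ground it was 149, 255 and 308 in GHsf units, against 15.5, 60.7, 78.2 and 193 in GWt units. One WT plate in each environment, FWt A1 at 195 and GWt B2 at 193, reached the HSFA2 KO range, and the low ends were set by plates A2 in spaceflight and A1 on the ground. Its log2 fold change was 2.20 ± 0.98 in FHsf : FWt and 1.89 ± 0.98 in GHsf : GWt, and 2.04 ± 0.69 over both (adjusted p = 0.21), so that none was called. The 2 arrays of GWt plate A1 read 4.15 and 57.9, a difference of 3.80 on the log2 scale. With 32 added to every signal, which limits the weight of such low readings, the value over both environments was 1.41 and was called. With WT plates of BRIC B alone, GHsf : GWt was 0.89.

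**Figure D2:**
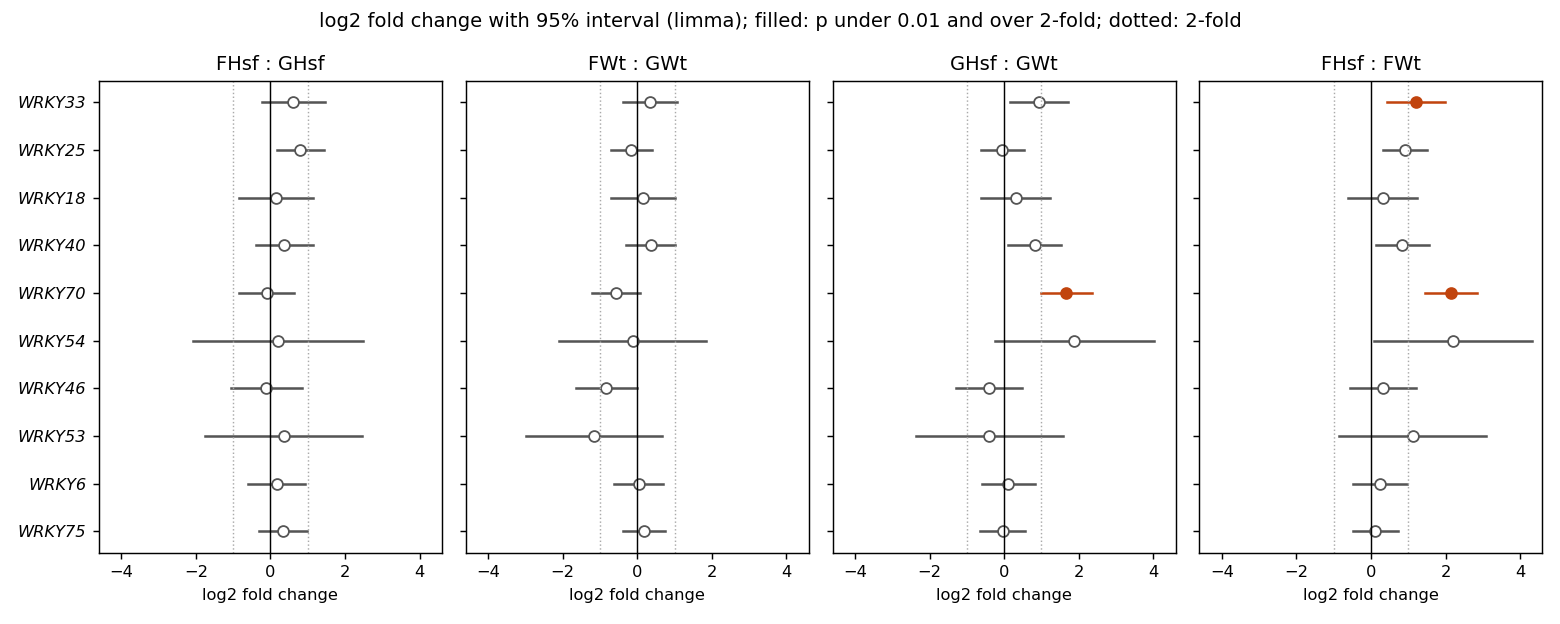
log2 fold change of the 10 WRKY genes in the 4 comparisons, as points with 95% intervals from limma (x axis, log2 scale; dotted lines mark 2-fold). Filled points, WRKY70 in both genotype comparisons and WRKY33 in FHsf : FWt, passed both thresholds; the intervals of WRKY54 and WRKY53 are the widest.

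WRKY46 (At2g46400, chromosome 2, 19043675 to 19044754, minus strand) and WRKY53 (At4g23810, chromosome 4, 12392665 to 12393739, minus strand) belong with WRKY70 and WRKY54 to the group III WRKY proteins and contribute to basal resistance against bacteria, and WRKY53 promotes leaf senescence. WRKY46 was the single member with every FWt unit below every GWt unit, 1 of 10 against 1.74% of all probe sets. Its signal was 236, 234, 268 and 266 in FWt units, against 272, 328, 542 and 826 in GWt units. The nearest units were FWt plate B1 at 268 and GWt plate A1 at 272, the mean of 2 arrays that read 244 and 304. The first of these arrays lay below FWt plates B1 and B2, so with first-run arrays alone the groups overlapped. The log2 fold change in FWt : GWt was -0.84 ± 0.38 (adjusted p = 1.00, exact permutation p = 0.0286, or 0.19 after adjustment), and the gene was not called. The higher readings on the ground were those of the BRIC B plates, and with BRIC B alone the value was -1.32. In HSFA2 KO units WRKY46 ran from 180 to 471 in FHsf, against 296 to 362 in GHsf, with a log2 fold change of -0.11 ± 0.43. The interaction was 0.72 ± 0.57 (adjusted p = 0.999).

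WRKY53 gave low signals on these arrays, at or below 95.7 in all units and down to 3.09 in FWt plate A2, and its mean lay below the median of all probe sets. Its signals ran from 39.9 to 95.7 in FHsf, 31.5 to 72.0 in GHsf, 3.09 to 74.6 in FWt and 48.7 to 95.2 in GWt units. The residual SD was 1.25 on the log2 scale, against 0.29 to 0.55 for the 8 members other than WRKY53 and WRKY54. Its largest difference, -1.15 ± 0.84 in FWt : GWt, rested on plate A2. At this precision no change of WRKY53 was detectable in any comparison, and its narrowest 95% interval, that of HSFA2 KO : WT over both environments, reached from -1.04 to 1.76.

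WRKY75 (At5g13080, chromosome 5, 4149927 to 4151019, minus strand) and WRKY6 (At1g62300, chromosome 1, 23016886 to 23019155, minus strand) are factors of senescence and of the phosphate starvation response, WRKY6 as a repressor of the phosphate exporter gene PHO1. WRKY75 had signals of 8887 to 11719 in FHsf, 7187 to 9561 in GHsf, 7801 to 11039 in FWt and 5643 to 11842 in GWt units. WRKY6 had 472 to 818 in FHsf, 490 to 661 in GHsf, 397 to 732 in FWt and 340 to 690 in GWt units. All groups overlapped for both genes. The HSFA2 KO : WT difference over both environments was 0.04 ± 0.20 for WRKY75 (95% interval -0.39 to 0.47) and 0.18 ± 0.23 for WRKY6 (95% interval -0.33 to 0.68), so that a 2-fold change over both environments lies outside either interval.

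Ordered by group mean of the log2 signals, FHsf stood first and GWt last for WRKY33, WRKY40, WRKY18 and WRKY6, with GHsf ahead of FWt in each. Between neighbours in this order, the steps FHsf to GHsf and FWt to GWt did not exceed the spread of the units for any of the 4 genes. For WRKY70 the order was GHsf, FHsf, GWt and FWt, and only the step between FHsf and GWt left a gap between the units. For WRKY25, FHsf stood apart and GWt, GHsf and FWt followed with overlapping units.

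Over the 14 units, WRKY33 correlated with WRKY40 at Pearson r = 0.744, with WRKY25 at 0.706 and with WRKY70 at 0.698; these are descriptions over units that share arrays and group differences. Once the group means were taken out, the same pairs had r = 0.221, 0.521 and 0.227. WRKY75 was the other way, with r = 0.732 to WRKY18 and 0.730 to WRKY6 over units, and 0.772 and 0.755 within groups. Among 11214 probe sets of 1 locus with a mean signal over the median, those most like WRKY33 over the units were At1g21160 (r = 0.948), EFE, which encodes an ethylene-forming ACC oxidase (r = 0.945), and MLO2, known as a powdery mildew susceptibility gene (r = 0.942). Those most like WRKY54 were NIMIN1 (r = 0.847), OASC, a cysteine synthase gene (r = 0.839), and PIP5K4 (r = 0.838).

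The other WRKY genes on the array were 49. None of them was called in FHsf : GHsf, in FWt : GWt or in the interaction. WRKY17, known with WRKY11 as a negative regulator of basal resistance, rose in GHsf : GWt by 2.36 ± 0.48 (adjusted p = 0.134), with 256, 440 and 572 in GHsf units, against 53.9, 85.8, 160 and 50.2 in GWt units. WRKY38, a negative regulator of basal defense that salicylate induces, rose in FHsf : FWt by 2.19 ± 0.60, with 598, 414 and 1353 in FHsf units, against 345, 203, 58.7 and 129 in FWt units. WRKY39 rose in FHsf : FWt by 1.51 ± 0.37 (adjusted p = 0.303), with 1955, 2002 and 2561 in FHsf units, against 962, 1036, 729 and 454 in FWt units. In none of WRKY17, WRKY38 and WRKY39 did the units overlap in the comparison named. They were picked because they passed on the same units, so this is no further support. Among all probe sets, 7.95% had every GHsf unit above every GWt unit and 5.73% every FHsf unit above every FWt unit. WRKY17 too had been listed by the study from these arrays. Over both environments WRKY17, WRKY38, WRKY19 and WRKY39 passed, 4 of 49 against 2.58% of all probe sets. The call of WRKY19 was kept in only 6 of 14 fits without a unit and 5 of 11 alternatives. Of the 49, 33 were above 0 with a median of 0.19, against 9 of 10 and a median of 0.39 in the 10 members. Among all probe sets 57.4% were above 0, with a median of 0.11. WRKY17, at 1.76 ± 0.34, was the only one of the 4 under an adjusted p of 0.05 (0.0469).

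**Figure D3:**
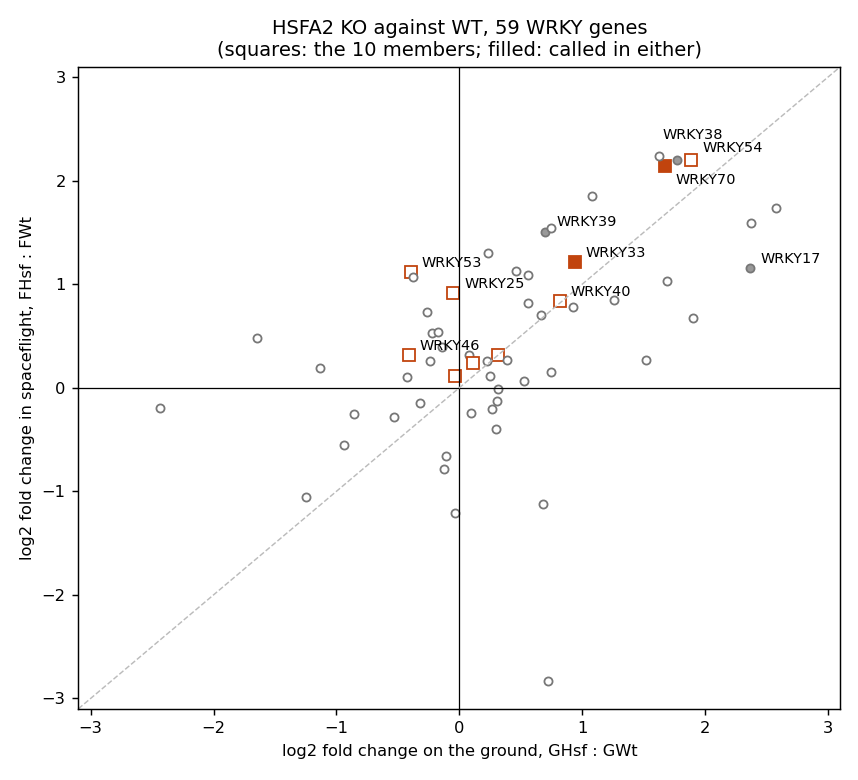
log2 fold change of HSFA2 KO : WT on the ground (x axis, GHsf : GWt) and in spaceflight (y axis, FHsf : FWt) for 59 WRKY genes; squares are the 10 members, circles the 49 others, filled symbols passed in either comparison, and the dashed line marks equal change. WRKY70 lies at 1.67 and 2.14, near WRKY54 and WRKY38, and WRKY25 lies close to 0 on the ground and at 0.91 in spaceflight. No array is in both comparisons.

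Genes around WRKY33 were read from a list of 10 MAP kinase and VQ protein genes. Of these, 2 of 10 rose in GHsf : GWt, against 2.46% of all probe sets called, and 1 of 10 in FHsf : FWt, against 1.75%. None was called in FHsf : GHsf or FWt : GWt, where 1.51% and 0.807% of all probe sets were. SIB1 and SIB2 encode VQ proteins that bind WRKY33 and raise its activity in defense. SIB1 had 418, 551 and 436 in FHsf units, against 259, 148, 239 and 158 in FWt units. On the ground SIB1 had 505, 439 and 448 in GHsf units, against 167, 212, 136 and 234 in GWt units. HSFA2 KO units of SIB1 were above WT units in either environment. Its log2 fold change was 1.25 ± 0.28 in FHsf : FWt, 1.34 ± 0.28 in GHsf : GWt and 1.30 ± 0.20 over both (adjusted p = 0.0314). The call in each environment was kept in 14 of 14 fits without a unit and 8 of 11 alternatives. With array run as a covariate both were lost, at 1.13 in FHsf : FWt and 1.22 in GHsf : GWt. The FHsf : FWt call was also lost with all 16 arrays as units (1.17). SIB2 rose by 1.67 ± 0.43 in GHsf : GWt (adjusted p = 0.208), with 356, 285 and 192 in GHsf units, against 88.9, 47.1, 115 and 106 in GWt units, and had 1.11 in FHsf : FWt, which did not pass. Its ground call was kept in 7 of 11 alternatives and 13 of 14 fits without a unit, and was lost with BRIC B alone, with GHsf arrays B3 and B3-2 averaged, without GHsf array B3, without both of these arrays and without the second-run arrays. The kinase genes MPK3, MPK4 and MPK6, whose proteins act upstream of WRKY33, differed by 0.38 or less in size in the genotype comparisons and were not called. MKK9, a kinase kinase gene, had -0.95 in GHsf : GWt, short of the required size.

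None of the 6 camalexin synthesis genes passed in any comparison, where 0.807% to 2.58% of all probe sets did. CYP79B3, an early enzyme of the pathway, had -0.95 in FHsf : FWt and -0.91 in GHsf : GWt, and PAD3, the last enzyme, had 1.50 and 1.58 at a low mean signal.

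Of 7 salicylate signalling genes, 2 rose in FHsf : FWt, against 1.75% of all probe sets called. None passed in GHsf : GWt, against 2.46%. Over both environments NIMIN1 (2.37) and PAD4 (1.43) passed, 2 of 7 against 2.58% of all probe sets. That call of NIMIN1 was kept in 14 of 14 fits without a unit and 11 of 11 alternatives, that of PAD4 in 7 and 5. NIMIN1, which encodes a protein that binds the salicylate receptor NPR1 and restrains it, had 432, 189 and 465 in FHsf units, against 123, 9.51, 47.0 and 63.3 in FWt units, a log2 fold change of 2.96 ± 0.68 (adjusted p = 0.267). That value was 2.23 without FWt plate A2, the lowest, and 2.15 with 32 added to every signal, and was called in both. On the ground NIMIN1 had 353, 269 and 287 in GHsf units, against 74.6, 85.5, 79.3 and 119 in GWt units, with a log2 fold change of 1.77 that did not pass. PAD4, a lipase-like regulator upstream of salicylate, rose by 1.92 ± 0.62 in FHsf : FWt (adjusted p = 0.446), and 3 of the 14 fits that leave out a unit kept that call. The PAD4 value was 1.41 without FWt plate B2, which read 17.9, and 1.37 with 32 added to every signal. NPR1 itself had 0.57 in FHsf : FWt, and neither it nor the pathogenesis-related gene PR1 was called. Signals of PR1 ran from 103 to 170 in FWt and from 6.98 to 125 in GWt units. Those of GWt were partly under the lower quartile of the arrays, so that no fold is given. The median of the 7 genes was 0.68 in FHsf : FWt and 0.94 in GHsf : GWt.

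Of 7 senescence genes, SAG21 rose in FHsf : FWt by 1.26 ± 0.24 (adjusted p = 0.184), with 51250, 44920 and 65270 in FHsf units, against 23450, 22390, 24100 and 19150 in FWt units. SEN1, a gene induced in the dark and by sugar shortage, fell in GHsf : GWt by 2.02 on the log2 scale (adjusted p = 0.182) and rose in FHsf : GHsf by 1.62 (adjusted p = 0.601), a call that 7 of the 14 fits without a unit kept. SAG12, the classic marker of leaf senescence and a gene downstream of WRKY53, was not called. Neither measured phosphate gene, PHO1 or PHT1;4, passed in a comparison. Of 5 early stress zinc finger and heat genes, ZAT10 passed over both environments alone (1.15 ± 0.34, adjusted p = 0.155, kept in 9 of 14 fits without a unit). Of 6 elicitor response genes, ERF104, an early ethylene response factor that MPK6 releases after flagellin, fell in GHsf : GWt by 1.07 on the log2 scale (adjusted p = 0.187). That call was kept in 6 of 11 alternatives and in 13 of 14 fits without a unit, the exception being GHsf array B3-2 (-0.92). The elicitor marker FRK1 was not called.

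**Figure D4:**
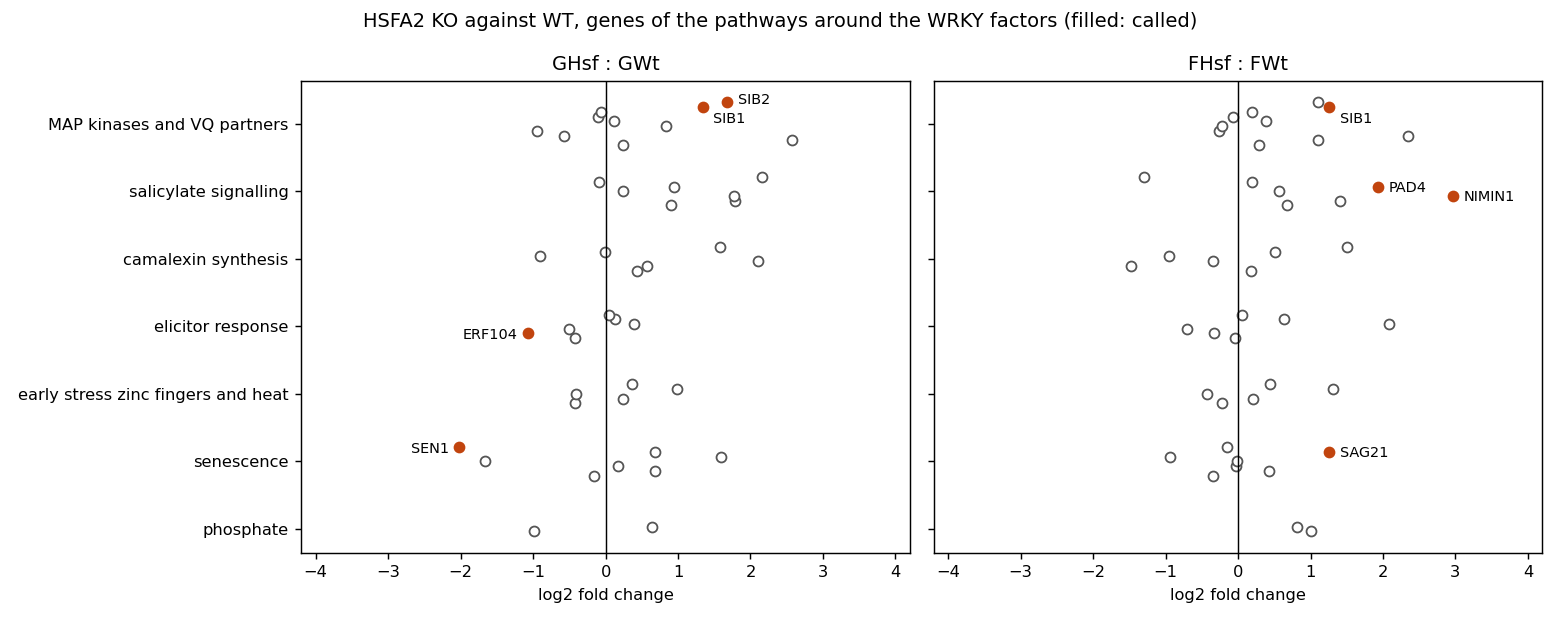
log2 fold change (x axis) of every measured gene in 7 lists around the WRKY factors, in GHsf : GWt (left) and FHsf : FWt (right); 1 point per gene, filled and named where it passed both thresholds. SIB1 passed in both panels, NIMIN1 (2.96) and PAD4 (1.92) in spaceflight, and no camalexin gene in either. The values of NIMIN1 and PAD4 each rest partly on an FWt unit under the lower quartile of its array.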

How the data were processed

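RNA of 16 ATH1 arrays was analysed. The values are intensity, as MAS5 signals per probe set, made by the authors with Affymetrix Expression Console and deposited on a linear scale after each array was scaled to a trimmed mean of 500, with 2% of probe sets trimmed at each end. The authors' table of fold changes and p-values was used for gene annotation and for the choice of probe sets only. Groups and canisters came from the labels. Arrays with Rep2 in their title were taken as the second run and all others as the first. The titles name repeats and not runs, so the run is a reading of that tag. The growth protocol in the labels names another knockout line, ARG1 KO, while the sample labels give HSFA2 KO.

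The log2 of each signal was used with nothing added. Of 22810 probe sets, 22687 were tested and 123 were left out, 64 of them controls. lmFit and eBayes of limma 3.58.1 (R 4.3.3) were run on the 14 units in 4 groups, with 1 spread per probe set, 10 residual and 1.65 prior degrees of freedom. The threshold on p in the study's methods was read as one on unadjusted p. Adjusted p-values follow Benjamini and Hochberg over all tested probe sets, and errors after ± are SE. Across probe sets the residual SD had a median of 1.14 (log2), and the number of arrays limits the precision. Single values were also compared by exact permutation tests of units. Figures were drawn with matplotlib. Sequences were not used here.

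The members and gene lists were chosen with earlier results of these data known. Named are all members, other WRKY genes that passed, at most 3 genes a list by smallest p, and the genes most like WRKY33 and the member with the widest range; HsfA2 and genes named without having passed were added for their roles after values were seen. Alternatives were quantile normalization, an offset of 32, 2 other sets of probe sets, other units, BRIC B plates alone, first-run arrays alone, array run as a covariate, an intensity trend, a replicate block and leaving out units.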

Additional observations from a re-analysis of the deposited data

Results flagged for a closer look

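PAD4 had 1 GWt plate far from the other 3: plate A2 read 34.0, against 111 to 123 in the others, a gap of 0.92 of the whole range on the log2 scale. It was the only such case in 46 groups of 4 WT units (23 genes in FWt and in GWt), where chance gives about 1 in 20.

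WRKY25 was flagged as the member with the smallest interaction p. Its estimate in limma's interaction term was 0.96 ± 0.38 on the log2 scale, with FHsf : GHsf at 0.80 and FWt : GWt at -0.16. The adjusted p of this interaction was 0.999, so a difference between the genotypes was not established. The 3 FHsf units were above all 11 others, but these are the values behind the flag.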

How the results depend on the processing

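Every count of called members in FHsf : GHsf, FWt : GWt and the interaction stayed at 0, except 1 in FHsf : GHsf (WRKY25) without second-run arrays. In GHsf : GWt the count was 2 with all 16 arrays as units, 0 without second-run arrays and 0 without the GHsf arrays B3 and B3-2, an alternative chosen after seeing the data; both of the last leave 1 GHsf array, assumed to vary like the other groups. In FHsf : FWt it was 1 with WT plates of BRIC B only. Over both environments it was 1 with BRIC B only, without second-run arrays and without GHsf B3 and B3-2. WRKY33 was the member gained or lost in these, except that the 2 ground counts of 0 lost WRKY70. Leaving out each unit gave 1 to 2 in GHsf : GWt, 1 to 2 in FHsf : FWt and 1 to 3 over both environments. The ground count was 2 without GWt plate B2 (WRKY40 added) or GHsf array B3 (WRKY33 added). Without FHsf array B3-2 the count in FHsf : FWt stayed 2, with WRKY25 in place of WRKY33. It was 1 without FWt plate A1, A2 or B2 or FHsf array B5, and over both environments 1 without GWt plate A1 or GHsf array B3-2. Of the 40 permutation tests, 6 reached p under 0.05; 0 did with BRIC B only and 0 without second-run arrays, and 1 to 5 did when a unit was left out. With BRIC B only, and without second-run arrays outside FWt : GWt, groups are too small for any such p to be under 0.05, and so are those of FHsf : GHsf throughout (0.1 at best for 3 against 3) and of each genotype comparison that lost a unit. Where groups are too small, lower counts say nothing about stability. In FWt : GWt without second-run arrays, 4 against 4 units still allow a permutation p of 0.0286. The p of WRKY46 under 0.05 was lost there.

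The paired fit, with plate position as a replicate block, called 0 members in FHsf : GHsf, 0 in FWt : GWt and 0 in the interaction, and 356, 204 and 267 probe sets, against 342, 183 and 231 without it. Same-position plates correlated at -0.04 to 0.13 in their deviations, and plates of different positions at -0.10 to 0.11. No pairing by position was visible, though so few units cannot exclude one. Quantile normalization moved the all-probe median of GHsf : GWt to -0.01, against 0.12, and called the same members. Its median over members was 0.11 there. Adjusted p-values of WRKY70 over both environments ran from 7.44e-08 to 0.115 over the alternatives, those of WRKY33 from 0.00123 to 0.43. Signals under about 30, near the array lower quartiles (33.3 at most), carry little weight. This limits WRKY53, WRKY54 and PR1, and the FHsf : FWt values of NIMIN1 and PAD4.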
